A study of Homo sapiens with 6 samples.

Results

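The matriptase system was followed through 10 genes, out of 30727 genes counted in each library: the Kunitz-type inhibitors SPINT1 and SPINT2, the proteases ST14, PRSS8, TMPRSS2, TMPRSS3, TMPRSS4, HPN and PRSS22, and the receptor F2RL1. SPINT1 was selected on its measured RNA level, which rose very strongly when SUV420H2 was knocked down, so its own values are given as a description without a test. The other 9 were chosen for their place in the pathway, with earlier results of these data known. Of these, 7 had enough reads to be tested together with all other genes. Most of the 9 encode proteins bound to the cell surface, and PRSS22 encodes a secreted protease.

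Matriptase, encoded by ST14, is a serine protease anchored in the membrane of epithelial cells by its N-terminal part. It activates other proteins by cutting them once, and it works closely with prostasin, the lipid-anchored protease encoded by PRSS8. Its activity is held in check by HAI-1 and HAI-2, membrane proteins with Kunitz inhibitor domains that are encoded by SPINT1 and SPINT2. Known substrates of these proteases include the precursor of hepatocyte growth factor, pro-urokinase, the epithelial sodium channel, EpCAM and the protease-activated receptor PAR2, which F2RL1 encodes.

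The libraries came from PANC-1, an established human pancreatic carcinoma cell line, and measured poly(A) RNA. In 3 libraries the cells had received siRNA against SUV420H2, the histone H4 lysine 20 methyltransferase gene also named KMT5C, and 3 libraries were labelled as controls. Replicate numbers used here only name the libraries in accession order, since the labels give none. The sources used here do not state the time after transfection or the kind of control siRNA. Nothing in the labels says that the libraries came from separate cultures, so p-values measure the spread between these libraries, which may be technical. All values come from 1 cell line, and the extraction text attached to the samples speaks of brain cell types.

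Total counts were 20863594 to 25931995 for controls and 27007534 to 38022772 for knockdown libraries. KMT5C itself was at 9.55, 7.23 and 12.7 CPM (read counts scaled to a common library size) in the controls and at 6.03, 6.11 and 5.86 in the knockdown libraries. That is a log2 fold change of -0.72 (SE 0.163, edgeR adjusted p = 0.00227), which was not called against a 1.5-fold change (adjusted p = 0.305). Control replicate 3 stood apart: the chi-square per degree of freedom against the other controls was 11.3 and 13.6, while the other control pair gave 1.55 and the knockdown pairs gave 1.98 to 2.26. The same number of members passed the test with and without that library, 6 in each case. Duct markers summed to 2648 to 3209 CPM in controls and 6233 to 6448 CPM in knockdown libraries, with 5 of the 7 tested genes (of 8 listed) higher and 2 lower, and with CFTR at no more than 3 reads in any library. The 5 fibroblast markers summed to 2.12 to 2.27 and 8.04 to 8.58 CPM, 2 of 2 tested being higher and DCN having at most 1 read in any library. Most of that sum was PDGFRB, with means of 1.93 and 7.47 CPM. The other tested gene, COL14A1, had 6, 6 and 5 control reads and passed the filter on low counts only through the knockdown libraries. The 7 acinar markers summed to 0.400 to 0.745 and 1.36 to 1.85 CPM, 1 of 1 tested being higher and AMY2A being at 0. The tested gene, CEL, had 8, 8 and 15 control reads. That was too few in control replicate 1 for the filter, so CEL passed only with the knockdown libraries. The 7 leukocyte markers summed to 2.12 to 2.94 and 3.47 to 4.42 CPM, 1 of 2 tested being higher. Of all genes tested, 33.1% were higher and 34.2% lower by the same test, and the marker counts are a description only. The part of these markers in the results was not tested.

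Knockdown libraries held more RNA of SPINT1, ST14, PRSS8, HPN, PRSS22 and F2RL1, whereas SPINT2 and TMPRSS2 did not pass the test and TMPRSS3 and TMPRSS4 were hardly detected. In all, 8 of the 10 genes had enough reads to be tested, 6 were higher and 0 were lower at an edgeR adjusted p under 0.05. No member was lower at an unadjusted p under 0.05 either, and DESeq2 and limma-voom also called 6 higher and 0 lower. Among all 15190 genes tested, 67.3% were called, 33.1% higher and 34.2% lower, so the background of change was broad. All 6 were at least 2-fold higher, which 8.01% of all genes tested were. The same 6 genes had every knockdown library above every control and 0 members had every one below, against 35% and 36.3% of all genes tested. SPINT1 was placed in these counts by the choice itself, and leaving it aside 5 of 7 tested members were higher, with a median log2 fold change of 1.87 against -0.01 over all genes tested. PRSS8 and HPN had under 10 reads in every control and passed the filter on low counts only through the knockdown libraries, so these counts over the tested members are no support for a shift of the set. In bulk RNA, more cells expressing a gene and more RNA per cell cannot be told apart.

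**Figure D1:**
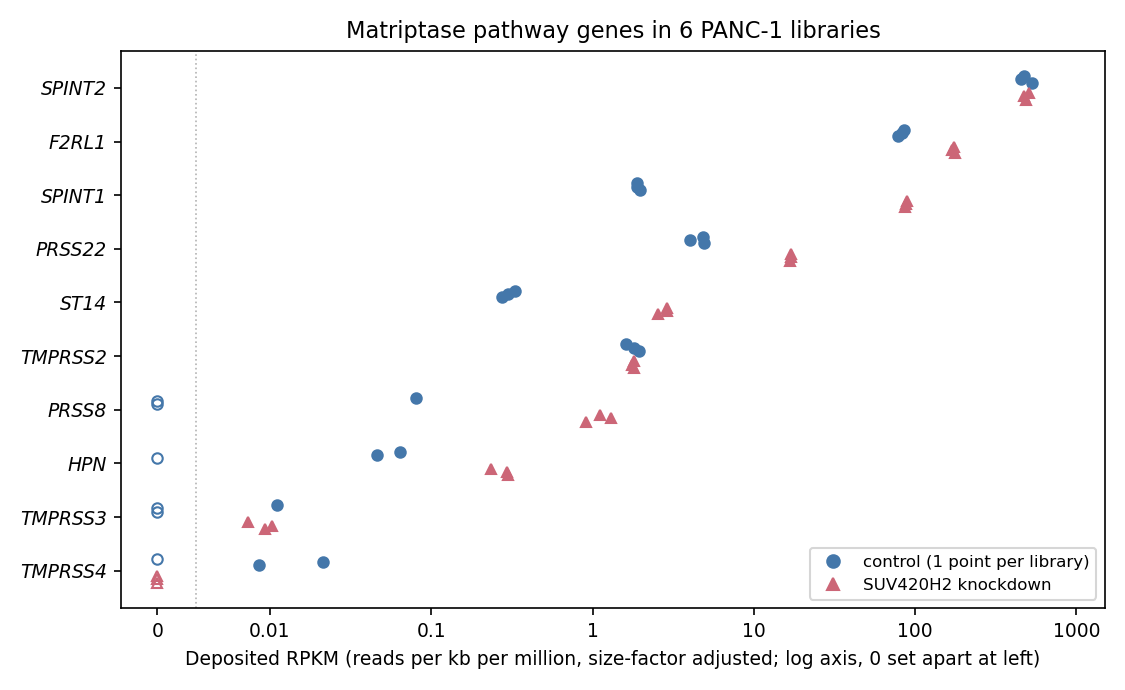
Deposited RPKM of the members in each library (reads per kilobase of gene scaled by library size, log axis with 0 set apart at the left), with 1 point per library for 3 controls (circles) and 3 knockdown libraries (triangles). SPINT1, ST14, PRSS22 and F2RL1 separate without overlap, while the points of SPINT2 and TMPRSS2 overlap between the groups.

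SPINT1 RNA went from a low to a high level. Its CPM was 5.07, 5.06 and 5.37 in the controls and 239, 235 and 232 in the knockdown libraries, with 105 to 137 reads per control and 6383 to 9158 per knockdown library. All 3 knockdown libraries lay far above all controls, and the spread within each group was small. Means were 5.17 ± 0.174 (SD, n = 3) and 235 ± 3.60 CPM (SD, n = 3), a log2 fold change of 5.51 or 45.5-fold. Per length, the level went from 1.92 ± 0.0488 to 88.3 ± 1.28 RPKM (SD, n = 3 each), that is from percentile 27.2 to percentile 95.3 of the genes tested. This was the 7th largest rise of all tested genes, with VIL1 at 6.05 just above it and DLL4 at 5.39 just below it on the log2 scale. VIL1 encodes villin of the microvilli, and DLL4 encodes a Notch ligand.

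The other inhibitor, SPINT2, was among the most abundant transcripts of these cells and showed no such shift (GRCh38 chromosome 19, 38264573 to 38292615). Its CPM was 878, 841 and 1001 in the controls and 942, 867 and 899.6 in the knockdown libraries, so the groups overlapped. The log2 fold change was -0.01 (95% interval -0.14 to 0.13, edgeR adjusted p = 0.937). Without control replicate 3 the sign turned, to 0.07 (edgeR adjusted p = 0.0534). At 487 ± 40.9 and 491 ± 20.5 RPKM (SD, n = 3 each), SPINT2 stayed above SPINT1 per length in every library of both groups. SPINT1 made up 0.397, 0.413 and 0.369% of the summed RPKM of the inhibitor pair in the controls and 14.9, 15.8 and 15.1% in the knockdown libraries. The sum of the pair was 489 ± 40.9 RPKM in controls and 579 ± 21.3 RPKM in knockdown libraries (SD, n = 3 each). Thus the pair's total differed much less between the groups than SPINT1 alone.

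ST14, the matriptase gene, was low in the controls and rose (GRCh38 chromosome 11, 130159782 to 130210362). Its CPM was 1.12, 1.01 and 0.941 in controls and 9.71, 9.79 and 8.52 in knockdown libraries, with 21 to 28 reads per control and 256 to 372 per knockdown library. All knockdown libraries were above all controls, with a log2 fold change of 3.18 (95% interval 2.90 to 3.47, SE 0.130, edgeR adjusted p = 5.17e-09), or 9.09-fold. Even so, its mean level per length in knockdown libraries, 2.77 ± 0.210 RPKM (SD, n = 3), stood at percentile 32.5 of the genes tested, after 0.300 ± 0.0282 RPKM and percentile 8.82 in controls. Inhibitor and protease therefore changed by unequal amounts. SPINT1 RPKM divided by ST14 RPKM was 5.73, 6.32 and 7.21 in the controls and 31.1, 30.3 and 34.4 in the knockdown libraries. These ratios include the gene chosen for its rise and are given without a test.

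**Figure D2:**
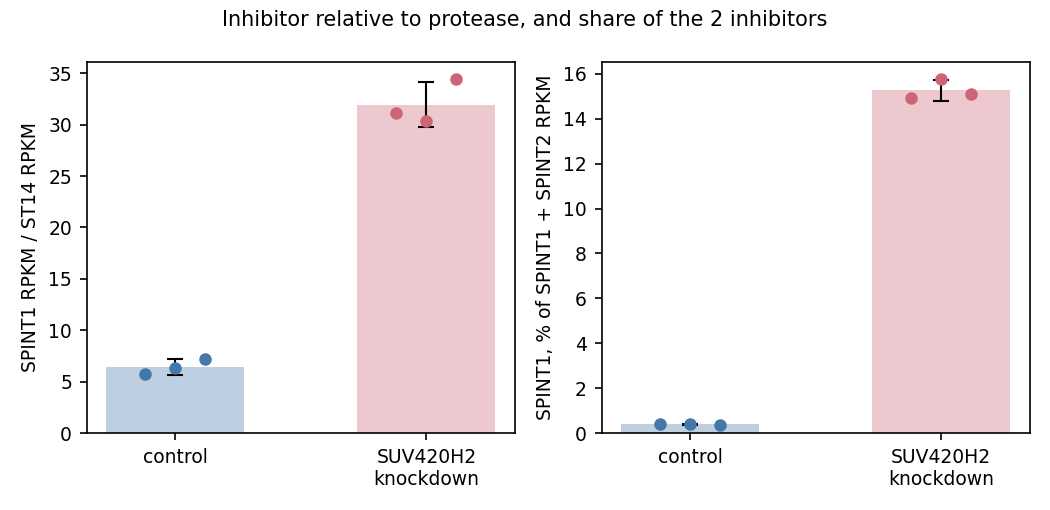
SPINT1 RPKM divided by ST14 RPKM (left) and SPINT1 as percent of the summed RPKM of SPINT1 and SPINT2 (right) in controls and knockdown libraries. Bars are means, error bars SD and points the 3 libraries of a group; the knockdown means are 32.0 and 15.3%, the control means 6.42 and 0.393%.

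PRSS8, the prostasin gene, was almost absent from the controls and was detected in each knockdown library (GRCh38 chromosome 16, 31131433 to 31135727). It had 4, 0 and 0 reads in the controls and 84, 70 and 54 reads in the knockdown libraries, at 2.19, 2.58 and 1.80 CPM. All 4 control reads came from control replicate 1. Scaled for depth, the summed reads differed 38.8-fold, with an exact 95% interval of 14.9 to 144 that covers counting error only. The fit gave 5.17 on the log2 scale (SE 0.489), and 3.30 on the scale of log2(RPKM + 0.1). No p is given, since PRSS8 could be tested only because it was high in the knockdown libraries. Without control replicate 1 no control read is left, and against a floor of 3 reads over the other controls the knockdown level was at least 33.6-fold higher. That figure leaves out the control that held all the reads, so it is no lower bound for the full data, where the interval starts at 14.9. Its gene body lies 0.040 kb from KAT8, the gene of a histone acetyltransferase, which did not pass the test at 0.14 (edgeR adjusted p = 0.0934). The sources used here do not state whether reads were counted by strand, so reads of close or overlapping genes cannot be told apart.

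HPN encodes hepsin, a membrane protease best known from liver and prostate (GRCh38 chromosome 19, 35040506 to 35066573). It had 5, 3 and 0 reads in controls and 28, 25 and 28 in knockdown libraries, at 0.731, 0.920 and 0.932 CPM. Its knockdown values were above all controls but stayed low, and the fit gave 2.87 on the log2 scale (95% interval 1.82 to 3.93, SE 0.478), without a p for the same reason as PRSS8. That value moved to 3.63 without control replicate 1, to 2.25 without control replicate 3 and to 1.49 on the scale of log2(RPKM + 0.1). An antisense gene, HPN-AS1, overlaps HPN and had at most 3 reads in any library, and reads of HPN and of genes that touch it cannot be told apart.

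PRSS22, whose secreted product is also named tryptase epsilon and can activate pro-urokinase, gave most of the protease RNA of the set (GRCh38 chromosome 16, 2852730 to 2858170). Its CPM was 9.95, 8.29 and 10.2 in the controls and 34.9, 34.9 and 34.5 in the knockdown libraries. The groups were well apart, with a log2 fold change of 1.87 (95% interval 1.69 to 2.04, SE 0.0786, edgeR adjusted p = 6.45e-09), or 3.65-fold. Per length it rose from 4.58 ± 0.484 to 17.0 ± 0.0898 RPKM (SD, n = 3 each). It held 67.7 ± 2.53% of the summed RPKM of the 7 proteases in controls and 74.1 ± 1.08% in knockdown libraries. That sum was 6.93, 6.20 and 7.12 RPKM in controls and 23.1, 23.3 and 22.4 RPKM in knockdown libraries, below SPINT2 alone in every library.

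The TMPRSS genes lie on chromosomes 21 (TMPRSS2 from 41464305 to 41508158, TMPRSS3 from 42371890 to 42396052) and 11 (TMPRSS4 from 118077078 to 118125505), and none of them passed as changed. TMPRSS2, an androgen-regulated protease of prostate and other epithelia, had 6.71, 7.52 and 8.19 CPM in controls and 7.47, 7.18 and 7.42 CPM in knockdown libraries. The groups overlapped and the log2 fold change was -0.02 (95% interval -0.23 to 0.19, edgeR adjusted p = 0.851), and 0.05 without control replicate 3. In the controls its level per length, 1.79 ± 0.166 RPKM (SD, n = 3), was close to that of SPINT1. TMPRSS4, often raised in pancreatic carcinoma, had 0, 2 and 1 reads in controls and 0 in every knockdown library, where 3 reads over the group would be 0.0314 CPM. TMPRSS3, known from inherited deafness, had 1, 0 and 0 reads in controls and 1 in each knockdown library. Neither was tested, and at this depth no difference was detectable.

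F2RL1, the gene of PAR2, was already abundant and rose moderately (GRCh38 chromosome 5, 76819030 to 76835315). Its CPM was 252, 247 and 235 in the controls and 516, 501 and 517 in the knockdown libraries. The groups did not overlap, and the log2 fold change was 1.06 (95% interval 0.97 to 1.16, SE 0.0421, edgeR adjusted p = 4.60e-09), or 2.09-fold. At 174 ± 3.14 RPKM (SD, n = 3) it was the second most abundant member per length in knockdown libraries, after SPINT2 and ahead of SPINT1 at 88.3 RPKM. In controls, the order per length was SPINT2, F2RL1, PRSS22, then SPINT1 and TMPRSS2, whose values lay within their spread of each other, and then ST14. In knockdown libraries, SPINT1 stood between F2RL1 and PRSS22, and ST14 stood above TMPRSS2.

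A wider set of 103 genes of the same system was listed as other proteases, substrates, receptors and inhibitors. The 47 with enough reads for a test comprised 26 that rose, 9 that fell and 12 that missed the threshold, and their median log2 fold change was 0.35. Again 33.1% of all tested genes were called higher and 34.2% lower, so a rise or a fall alone was common. The same shares apply to each single list below. The list includes 29 genes with at most 5 reads over all libraries. Of the 26 that rose, 3 (HGF, TFPI2 and SERPINA1) had under 10 reads in every control and passed the filter only through the knockdown libraries, so no p is given for them. Counts that include them are no support for a shift of a list. These lists were written with earlier results of these data known.

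Among the other type II transmembrane serine proteases, the structural family of matriptase, 13 were listed and 2 could be tested, TMPRSS5 at 0.73 and TMPRSS9 at 0.56 on the log2 scale. Neither passed the test (edgeR adjusted p = 0.123 and 0.0590). At an unadjusted p under 0.05, edgeR called 1 higher and 0 lower, and DESeq2 and limma-voom called 0 in either direction after adjustment. Among 30 other trypsin-like proteases 8 could be tested, 4 rose and 1 fell. PLAU, encoding urokinase, rose from 428 ± 20.5 to 918 ± 4.40 CPM (SD, n = 3 each; log2 fold change 1.10, SE 0.0440, edgeR adjusted p = 4.81e-09). PLAT, encoding tissue plasminogen activator, rose by 1.38 on the log2 scale (SE 0.225, edgeR adjusted p = 0.000239). PRSS53 rose by 0.55 (SE 0.106, edgeR adjusted p = 0.000794). PRSS23, a widely expressed secreted protease, fell by 0.60 on the log2 scale (SE 0.0375, edgeR adjusted p = 1.15e-07). HGFAC, encoding an activator of hepatocyte growth factor, had 7 control and 14 knockdown reads and was not tested.

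Substrates and their receptors were mostly detected: 18 of 20 could be tested, 13 rose and 2 fell, with a median log2 fold change of 0.36. Among all genes tested, 33.1% were higher and 34.2% lower, and the 13 include HGF, which passed the filter only through the knockdown libraries. EPCAM, an adhesion protein of epithelial cells that matriptase can cut, rose from 13.8 ± 0.926 to 70.7 ± 1.79 CPM (SD, n = 3 each; log2 fold change 2.35, SE 0.0627, edgeR adjusted p = 3.04e-10). It is also one of the duct markers. SCNN1A, the alpha subunit gene of the epithelial sodium channel, rose from 25.0 ± 1.94 to 76.7 ± 4.28 CPM (SD, n = 3 each; log2 fold change 1.61, SE 0.0676, edgeR adjusted p = 6.27e-09). The genes of its partner subunits, SCNN1B and SCNN1G, were at 1.59 and 1.64 on the log2 scale (edgeR adjusted p = 1.38e-05 and 2.38e-06). LAMA3, a laminin chain gene, rose by 1.87 (SE 0.0810, edgeR adjusted p = 7.98e-09), and PLAUR, the urokinase receptor gene, rose by 1.29 (edgeR adjusted p = 5.77e-07). The growth factor receptors of this system differed in direction. MET, the receptor of hepatocyte growth factor, was at 0.22 (SE 0.0454, edgeR adjusted p = 0.00118), while MST1R, the receptor of macrophage-stimulating protein, fell by 1.85 (SE 0.0906, edgeR adjusted p = 1.99e-08), from 16.5 ± 1.22 to 4.57 ± 0.294 CPM (SD, n = 3 each). HGF itself, the growth factor gene, had 7, 2 and 7 reads in controls and 34, 14 and 19 in knockdown libraries (log2 fold change 1.62, SE 0.382). F2RL2, a relative of F2RL1, fell by 1.28 on the log2 scale (SE 0.130, edgeR adjusted p = 5.69e-06), while F2RL1 rose.

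Other inhibitors moved in both directions. Of 16 other genes with Kunitz domains 8 could be tested, 4 rose and 2 fell, though DESeq2 called 1 of them lower. TFPI, an inhibitor of the tissue factor pathway, rose by 1.19 on the log2 scale (SE 0.0482, edgeR adjusted p = 5.16e-09), and its relative TFPI2 had 8 summed control reads and 107 knockdown reads (log2 fold change 3.26, SE 0.344). COL7A1, a collagen gene with a Kunitz domain, rose by 0.76 (SE 0.0750, edgeR adjusted p = 4.58e-06), and WFIKKN1 rose by 1.26 (SE 0.189, edgeR adjusted p = 0.000131). Of 24 serpins and other inhibitors 11 could be tested, 5 rose and 4 fell, with a median of 0.14. Calls in both directions were common in these data, with 33.1% of all genes tested higher and 34.2% lower. SERPINB6 fell by 1.15 (SE 0.0422, edgeR adjusted p = 2.72e-09) and SERPINA3 fell by 1.90 (SE 0.114, edgeR adjusted p = 9.28e-08). SERPINF1 and SERPINF2 rose by 1.36 and 1.21 (edgeR adjusted p = 3.39e-06 and 0.000846). SERPINE2, an inhibitor of urokinase and thrombin, rose by 0.94 (SE 0.195, edgeR adjusted p = 0.00127).

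**Figure D3:**
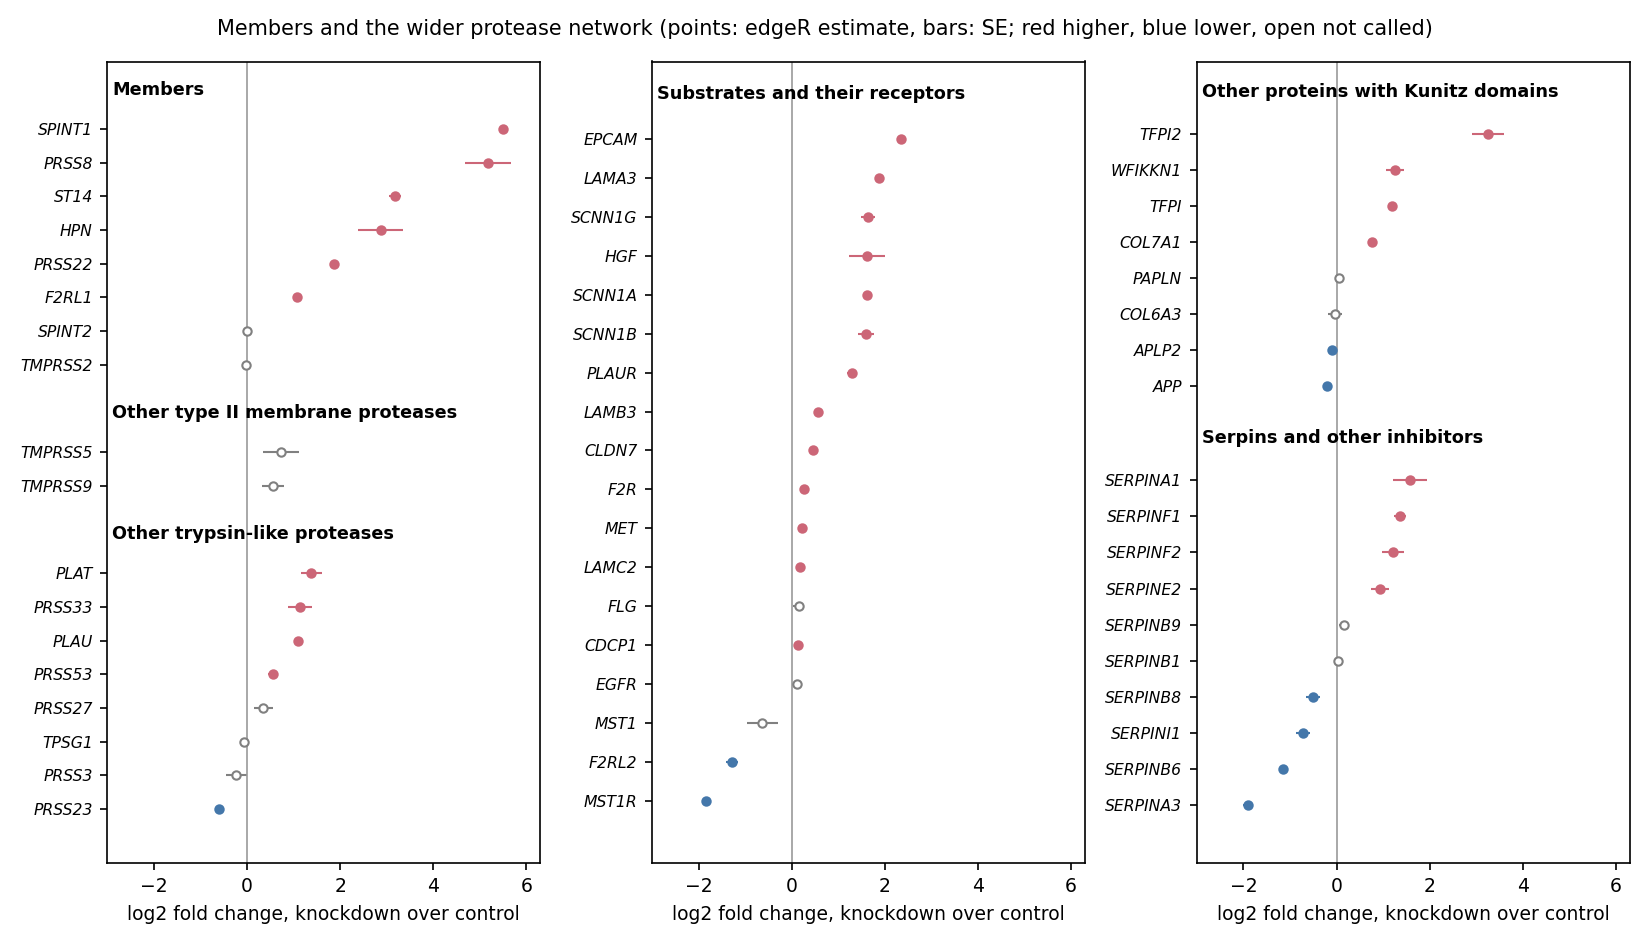
Log2 fold change, knockdown over control, of the tested members and of tested genes of the 5 wider lists (points, edgeR estimates; bars, SE; red called higher, blue called lower, open not called). SPINT1 at 5.51 is drawn for description only, PRSS8 and HPN have the widest bars among the members, and the inhibitor lists hold genes on both sides of 0.

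SPINT1 lies on chromosome 15, from 40844048 to 40858207 in GRCh38, and several genes around it were higher as well. Of 14 neighbouring genes within 250 kb, all 14 could be tested. Of these, 10 were higher, against 33.1% of all genes tested, 1 was lower, against 34.2%, and 3 did not pass, with a median log2 fold change of 0.49. In size, 2 were at least 10-fold higher, against 0.579% of all genes tested. These were DLL4, 71.1 kb away, and PPP1R14D, 15.3 kb away, which encodes an inhibitory subunit of a protein phosphatase. DLL4 went from 12, 7 and 20 reads in controls to 881, 615 and 707 reads in knockdown libraries (log2 fold change 5.39, SE 0.150). PPP1R14D went from 1, 2 and 1 reads to 92, 48 and 55 reads (log2 fold change 5.07, SE 0.368). Like PRSS8, PPP1R14D had under 10 reads in every control and could be tested only through the knockdown libraries. DLL4 had only 7 reads in control replicate 2, too few there for the filter, so it also passed only with the knockdown libraries. No p is given for either gene. Their places among the 10 higher and the 2 at least 10-fold higher are no support for a shift of the neighbourhood. RHOV, which encodes a small GTPase and lies on the other side of SPINT1 from PPP1R14D, rose by 2.61 on the log2 scale (SE 0.122, edgeR adjusted p = 1.39e-08).

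The rise was not uniform over these genes. GCHFR at 1.29 and RMDN3 at 0.87 rose less, and CHAC1, ZFYVE19, KNL1 and VPS18 were called higher at 0.50, 0.49, 0.40 and 0.28 on the log2 scale. INO80, a chromatin remodeller gene, fell by 0.49 (edgeR adjusted p = 3.83e-06). Among those that did not pass the test were DNAJC17 at 0.17 and C15orf62 at -0.11, and DNAJC17 was called higher, at 0.26, without control replicate 3. The antisense gene SPINT1-AS1 overlaps SPINT1 and had 5, 3 and 6 reads in controls and 293, 223 and 216 in knockdown libraries. Because the strand of counting is unknown, its reads and those of SPINT1 cannot be told apart and it was left out of the count of neighbours.

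**Figure D4:**
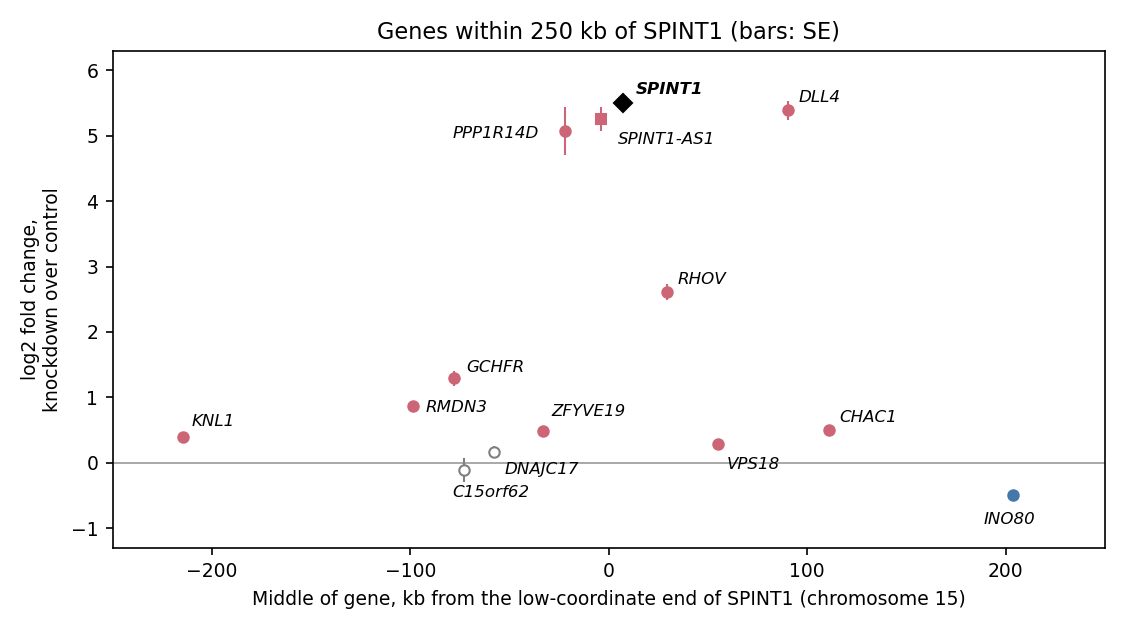
Log2 fold change (edgeR, knockdown over control) of SPINT1 and the neighbours reported by name against the distance in kb of each gene's middle from the low-coordinate end of SPINT1, with bars for SE, filled points for called genes, open points for the others and a square for the overlapping SPINT1-AS1. SPINT1, SPINT1-AS1, DLL4 and PPP1R14D lie above 5 on the log2 scale, RHOV lies at 2.61, and INO80 is the neighbour that was called lower.

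RefSeq promoter windows (GRCh38.p14, 250 bases before to 50 bases after a start) were matched for 4 of the 10 members, namely SPINT1, F2RL1, HPN and TMPRSS3. The bases of a window before its first annotated exon are shown for SPINT1 and for the pair of neighbours that rose most with it. The PPP1R14D window is poorer in G, C and CpG than those of SPINT1 and DLL4. HPN is shown because its window held the most matches to CAGGTG among the members matched. The HPN start used, 35041721, lies inside its gene span, which begins at 35040506. All stretches are written 5′ to 3′ on the strand of the gene. Capitals mark GGGCGG (the core of a GC box), CAGGTG (an E-box bound by SNAIL and ZEB factors) and TGANTCA (an AP-1 motif), each on either strand.
SPINT1, chr15:40843798-40844017, plus strand: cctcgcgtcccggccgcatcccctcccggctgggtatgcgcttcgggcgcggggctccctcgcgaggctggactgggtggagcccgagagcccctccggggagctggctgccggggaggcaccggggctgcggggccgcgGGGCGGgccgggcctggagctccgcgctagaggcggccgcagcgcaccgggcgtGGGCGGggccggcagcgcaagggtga
DLL4, chr15:40929090-40929332, plus strand: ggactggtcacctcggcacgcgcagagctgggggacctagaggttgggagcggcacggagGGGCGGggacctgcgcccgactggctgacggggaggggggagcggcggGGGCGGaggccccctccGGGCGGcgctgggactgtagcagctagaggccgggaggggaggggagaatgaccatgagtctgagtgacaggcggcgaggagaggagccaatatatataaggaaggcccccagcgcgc
PPP1R14D, chr15:40828710-40828958, minus strand: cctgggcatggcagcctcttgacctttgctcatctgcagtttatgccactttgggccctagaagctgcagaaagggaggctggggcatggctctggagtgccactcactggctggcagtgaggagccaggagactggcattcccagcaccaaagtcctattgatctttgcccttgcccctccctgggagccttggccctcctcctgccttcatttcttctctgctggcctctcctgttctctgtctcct
HPN, chr19:35041471-35041720, plus strand: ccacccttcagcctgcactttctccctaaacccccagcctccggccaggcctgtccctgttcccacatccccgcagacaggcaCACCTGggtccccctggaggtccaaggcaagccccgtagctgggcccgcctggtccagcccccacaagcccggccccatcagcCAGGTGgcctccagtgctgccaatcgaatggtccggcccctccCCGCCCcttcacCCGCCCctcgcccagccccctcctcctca

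The 300-base window of SPINT1 at the start at 40844048 had 77.7% G and C, a ratio of observed to expected CpG of 0.846 and 3 matches to GGGCGG. That of DLL4 had 70.7%, 0.779 and 3 matches. PPP1R14D differed, with 58.0%, a CpG ratio of 0.0404 and none of the motifs searched. GGGCGG was found in 65.4% of the 16576 windows of tested genes, whose median was 64.7% G and C with a CpG ratio of 0.808. In both measures DLL4 lay nearer to these medians than to that SPINT1 window. HPN, read at the start at 35041721, had 3 matches to CAGGTG, F2RL1 had 1, and the first SPINT1 window had 0, while 18.8% of the windows of tested genes held that motif. Of the 3 HPN matches, 1 crosses the start and is not printed. Of the 3 GGGCGG matches in the first SPINT1 window, 1 lies past the printed stretch. A second SPINT1 start at 40844477 had 1 match to CAGGTG and 0 to GGGCGG, with 69.7% G and C and a CpG ratio of 0.702. The first SPINT1 window held 1 match to TGANTCA, across the start and outside the printed stretch, and 5.29% of windows of tested genes held it. Matches of letters are a description and do not show that a factor binds.

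Around the other 9 members, 86 neighbours within 250 kb could be tested, of which 28 were higher and 34 lower, where 33.1% and 34.2% of all genes tested were. Single members differed in this. PRSS8 rose among neighbours that mostly fell, with 14 of 22 lower and 2 higher and a median of -0.38. ST14 rose with 0 of 4 tested neighbours higher and 3 lower. At TMPRSS4, 2 of 2 tested neighbours were higher. At TMPRSS2, all 4 tested neighbours were lower, BACE2, MX1, MX2 and RIPK4, at -1.20, -1.36, -0.46 and -0.71 on the log2 scale (edgeR adjusted p between 1.81e-07 and 1.12e-05). Around PRSS22, 14 of 27 were higher and 4 lower, among them the claudin gene CLDN6 at 4.05, with 18 control and 404 knockdown reads. Next to F2RL1, 2 of 5 were higher and 2 lower. IQGAP2 was one of those higher, at 3.17, with 12 control and 148 knockdown reads. Both CLDN6 and IQGAP2 had under 10 reads in every control and passed the filter only through the knockdown libraries, so no p is given. PRSS30P, also counted as higher, passed in the same way. Neighbour counts that include these genes are no support for a shift of a neighbourhood.

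The genes whose log2 CPM over the 6 libraries, each set to its control mean, lay nearest to that of SPINT1 were ANKRD1, DLL4, SLC1A7, VIL1 and SYT12, at Euclidean distances of 0.657, 0.756, 0.822, 0.924 and 0.931. DLL4 is the only one of these 5 that is also a neighbour of SPINT1 within 250 kb. With 2 groups of 3 libraries, this measure mainly ranks genes by how close their difference between the groups is to that of SPINT1 on this scale. A small count is added before the log, which shrinks differences of genes with few reads. SLC1A7 had 2, 2 and 4 control reads and VIL1 had 2, 1 and 1, so both passed the filter only through the knockdown libraries. Their fitted log2 fold changes were 6.53 and 6.05, against 5.51 for SPINT1, so their nearness depends on that added count.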

How the data were processed

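Poly(A) RNA of 6 PANC-1 libraries was analysed, 3 labelled as SUV420H2 knockdown and 3 as control. Reads were aligned with GSNAP to GRCh38, per the submitters' processing notes; the sources used here do not state the annotation, counting tool or strand setting. Per the file headers, the authors deposited for each gene a raw read count and an RPKM value scaled by size factors. Counts were used for tests, and the deposited RPKM to compare levels between genes.

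Of 30727 gene identifiers, 27814 matched a symbol in the RefSeq gene table. Counts were scaled by TMM, filtered with filterByExpr (minimum count 10, minimum total 15) and tested with edgeR 4.0.16 (quasi-likelihood, R 4.3.3), knockdown against control, with Benjamini-Hochberg adjustment over 15190 genes and a threshold of 0.05. DESeq2 1.42.0 and limma 3.58.1 served as alternatives. The scripts were tested on simulated data. Standard errors are the log2 fold change over the root of F.

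The members, gene lists and motifs were chosen with earlier results of these data known. Named were all members, the 4 genes with the smallest p among those passing in each list, MET, MST1R, HGF, HGFAC, PLAU, SCNN1A, EPCAM and SERPINE2, the tested neighbours of SPINT1 and the 5 genes nearest to it in pattern. SCNN1B, SCNN1G, PLAUR, F2RL2, SERPINA1, TMPRSS5, TMPRSS9, IQGAP2, CLDN6, PRSS30P, KAT8 and the neighbours of TMPRSS2 were named after their values were seen. A few genes that the rule covers are not reported here by name, though counts include them. Neuron markers summed to 12.4 to 14.4 CPM in controls and 7.75 to 7.99 in knockdown libraries. Of 4 tested neuron markers 2 were higher and 1 was lower, namely SYT1, whose mean went from 8.07 to 1.78 CPM. Those higher, SNAP25 and SLC17A7, had 6 and 5 reads in control replicate 1, too few there for the filter. Both passed only with the knockdown libraries, so their calls are a description only. Markers of islet, mast cell, astrocyte and endothelium summed to under 1 CPM in every library.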

Additional observations from a re-analysis of the deposited data

How the results depend on the processing

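The members called, 6 higher and 0 lower, were the same in number with DESeq2, limma-voom, limma on RPKM, the other scalings, no filter, the 1.5-fold test and each library left out in turn, while a filter at a mean log2 CPM of 1 left 4 higher, with PRSS8 and HPN not tested. On log2(RPKM + 0.1), PRSS8 was at 3.30 and HPN at 1.49. A test against a 1.5-fold change (glmTreat) lowered the counts over all genes from 5028 to 1606 higher and from 5188 to 1392 lower, in the pathway lists to 17 higher and 4 lower, among neighbours of all members from 38 and 35 to 19 and 9, and among neighbours of SPINT1 to 6 and 0. With a window of 100 kb, 19 neighbours were higher and 18 lower. With 500 kb, 62 were higher, a count that grows with the number of genes in the window and by itself shows no direction. By reads instead of RPKM, SPINT1 was 5.08 times ST14 in controls and 25.3 times in knockdown libraries, against 6.42 and 32.0 by RPKM. Of the single-gene values under all alternatives, 649 kept their call and direction, 11 lost the call, all under the 1.5-fold test, 1 gained it, and 0 changed sign while called. The 11 include KMT5C, PRSS23, PRSS53, MET, SERPINE2, INO80, KNL1, VPS18, CHAC1 and ZFYVE19, and DNAJC17 is the one that gained it. PRSS8, HPN, TMPRSS3 and TMPRSS4 are limited by depth. No paired analysis was possible because the labels give the libraries no replicate numbers; the numbers used here follow accession order and only name the libraries.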
